A study of Mus musculus with 15 samples.

Results

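The endogenous opioid system of the mouse brain was described here through the 4 genes that encode the opioid peptide precursors and the 4 genes that encode their receptors. The precursor genes were Penk (proenkephalin), Pdyn (prodynorphin), Pomc (pro-opiomelanocortin) and Pnoc (prepronociceptin), and the receptor genes were Oprm1, Oprk1, Oprd1 and Oprl1, for the mu, kappa, delta and nociceptin receptors. They were taken by symbol from the 26628 genes of the deposited table. All 8 were present, and all 8 were among the 15213 genes tested.

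RNA-seq had profiled the whole cerebellum (Ce) and the whole striatum (St) of male mice on the Hsd:ICR strain background, from a line selectively bred for high voluntary wheel running (Hi) and from a non-selected control line (Co). The 15 samples formed 4 groups, with 4 CeCo, 4 CeHi, 4 StCo and 3 StHi samples. All mice, Co included, were about 6 weeks old per the labels when they were placed singly in a cage with a running wheel, and brains were collected after 7 days. The methods of the study give a younger age at the start of wheel access, and collection early in the dark phase. Each of Hi and Co was 1 breeding line, so selection and the history of that one line cannot be told apart, and no group without a wheel entered this comparison. Hi mice ran more than Co mice before collection. The study states that this design hinders separating running itself from inherited motivation to run. According to the methods of the study a further StHi library had been set aside before testing, which was not analysed here.

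Opioid peptides are cut from large precursor proteins in secretory granules and act on receptors coupled to inhibitory G proteins, which lower cyclic AMP and open potassium channels. Enkephalins act mainly at the delta and mu receptors, dynorphins at the kappa receptor, beta-endorphin from Pomc at the mu and delta receptors, and nociceptin at its own receptor. In the striatum, Penk is a known marker of the medium spiny neurons of the indirect pathway and Pdyn of those of the direct pathway. The opioid system is known for its part in reward and in the control of movement.

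The 8 genes lie on 6 chromosomes. Per GENCODE on GRCm38, Penk spans chr4:4133531-4138819, Pdyn chr2:129686565-129699844, Pomc chr12:3954951-3960642 and Pnoc chr14:65400673-65425472. Oprm1 spans chr10:6758506-7038198, Oprk1 chr1:5588466-5606131, Oprd1 chr4:132110726-132144486 and Oprl1 chr2:181715016-181720985. Some exons of Penk overlap A830012C17Rik on the opposite strand, which had no row in the table, and 8.60% of the 50-base windows of Penk exons also occur in that gene. Some exons of Oprm1 overlap Ipcef1 on the opposite strand, with 0.583% of windows shared. Whether the libraries kept strand was not stated in the sources used here, so reads in the shared stretches cannot be assigned by strand. Ipcef1 had a mean of 4827 normalized counts in Ce and 2766 in St. Oprm1 held 1 to 5 fragments in each CeCo sample and 2 to 7 in each CeHi sample.

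The 250 bases upstream of a RefSeq start are given for 3 genes that differ in the results below: Pdyn, with the largest difference between regions, Oprd1, with a large difference, and Pomc, with no called difference. Windows were found in the RefSeq table (GRCm38.p6) for 5 genes, Pdyn, Pomc, Oprm1, Oprd1 and Oprl1. The sequences run 5′ to 3′ on the strand of the gene, and capitals mark a TATA box (TATAAA), a GC box (GGGCGG) or a CCAAT box (CCAAT) on either strand. The Pdyn window is chr2:129699939-129700188 (minus strand), the Oprd1 window chr4:132144487-132144736 (minus strand) and the Pomc window chr12:3954695-3954944 (plus strand).
Pdyn: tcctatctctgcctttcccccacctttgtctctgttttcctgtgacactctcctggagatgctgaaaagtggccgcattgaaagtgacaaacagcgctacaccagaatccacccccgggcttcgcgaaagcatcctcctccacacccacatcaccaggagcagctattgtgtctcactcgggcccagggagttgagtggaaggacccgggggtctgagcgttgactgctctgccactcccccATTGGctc
Oprd1: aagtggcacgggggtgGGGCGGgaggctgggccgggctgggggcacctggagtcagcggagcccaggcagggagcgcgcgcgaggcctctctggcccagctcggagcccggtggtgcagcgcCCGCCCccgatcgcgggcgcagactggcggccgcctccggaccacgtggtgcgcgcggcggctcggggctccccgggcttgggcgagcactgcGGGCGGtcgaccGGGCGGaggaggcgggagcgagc
Pomc: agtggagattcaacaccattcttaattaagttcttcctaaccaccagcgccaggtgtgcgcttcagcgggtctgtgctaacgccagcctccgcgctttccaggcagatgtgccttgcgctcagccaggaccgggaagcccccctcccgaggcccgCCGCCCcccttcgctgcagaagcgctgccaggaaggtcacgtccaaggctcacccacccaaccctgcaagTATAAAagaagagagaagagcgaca

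The Oprd1 window was 80% G or C, more than 98.8% of the 32851 promoter windows of the same length, and held 4 GC boxes that do not overlap. The Pomc window was 60% G or C and held 1 TATA box and 1 GC box, and the Pdyn window was 57.2% G or C with 1 CCAAT box. A TATA box was found in 12.4% of all windows, a GC box in 32.7% and a CCAAT box in 33.8%. The cyclic AMP response element TGACGTCA (1.55% of all windows) and the shorter form TGACG (17.8%), which the full element contains on both strands, were found in none of these 3 windows. These matches describe letters in a window and say nothing of which factor binds there.

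Libraries held between 32909383 and 47485535 fragments. Values are the deposited normalized counts, scaled for library size and not for length, in which 1 fragment was worth 0.841 to 1.30. Several libraries held genes of another tissue. CeCo replicate 0 held pituitary genes, CeHi replicate 3 striatum genes and StHi replicate 0 hypothalamus genes, with values given beside the results they touch. StCo replicate 2 also held hypothalamus genes, at a lower sum of 525 normalized counts against 2409 in StHi replicate 0, and genes of the choroid plexus varied widely, from 1229 to 114419 in Ce and from 236 to 16139 in St. The tissue labels were checked against markers. All 16 striatum markers were called higher in St, with summed counts of 223408 to 302180 in St and 12708 to 13562 in Ce. All 10 cerebellum markers were called higher in Ce, with sums of 307867 to 353100 in Ce and 3006 to 4650 in St. Between lines 0 of the 16 striatum markers were called in either region, and 2 cerebellum markers, Cbln1 and En2, were called higher in StHi. Of all genes tested, 5.94% were called between lines in Ce and 2.66% in St. These are bulk samples, in which fewer cells of a type and less RNA per cell cannot be told apart.

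All 4 precursor genes were detected in every sample. Penk, the enkephalin precursor, reached 51529, 36042, 37135 and 50960.1 normalized counts in the StCo samples of replicates 0, 1, 2 and 3. In StHi it was 43237, 56722 and 54840.3. The StCo range held the lowest StHi sample, so the groups overlapped.

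In the cerebellum Penk stood at 3808, 3132, 3212 and 3803 normalized counts in the CeCo samples. It reached 4536, 4762, 4639.7 and 4523 in the CeHi samples. Every CeHi sample lay above every CeCo sample, and the CeHi samples differed little from each other. The Penk mean was 12.6 times higher in St than in Ce in Co mice and 11.2 times in Hi mice.

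Pdyn, the dynorphin precursor, was well detected in the striatum and rested on a few fragments in the cerebellum. StCo samples held 1175, 918, 1096 and 1201 normalized counts. StHi samples held 982, 1215 and 1037. The striatal groups overlapped. In the cerebellum the CeCo samples held 4.66, 1.78, 2.56 and 2.67 normalized counts, from 13 fragments in all, and the CeHi samples 2.52, 2.11, 3.71 and 9.51, from 18 fragments. The highest Ce sample, CeHi replicate 3, was the one with striatum genes. The ratio of fragment rates between St and Ce was 349 in Co (95% exact counting interval 204 to 655) and 235 in Hi (148 to 397), intervals that cover counting error only.

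Pomc, the precursor of beta-endorphin and of corticotropin, is chiefly a gene of the pituitary and hypothalamus. In both regions it stayed low, apart from 1 sample. CeCo replicate 0 held 332.7 normalized counts, while the other CeCo samples held 29.4, 30.7 and 44.5. CeHi samples held 37.8, 26.4, 36.1 and 45.4. StCo samples held 39.5, 59.3, 62.0 and 49.4, and StHi samples 67.4, 72.8 and 46.3. Leaving aside CeCo replicate 0, the Ce range met the St range between 39.5 and 45.4.

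The pituitary hormone genes Gh and Prl, for growth hormone and prolactin, moved with Pomc in CeCo replicate 0. Gh held 173 and Prl 62.4 normalized counts there, against at most 8.02 and 13.5 in the other Ce samples. The summed level of the 5 pituitary genes beside Pomc was 254 in that sample and between 9.39 and 53.0 in the other Ce samples. Cga, the shared subunit of pituitary glycoprotein hormones, was at 11.2 in CeCo replicate 0, at 21.9 in CeHi replicate 0 and at 0 in the other 6 Ce samples. Tshb and Lhb, the hormone-specific subunits of thyrotropin and luteinizing hormone, did not stand out in that sample. Tshb was at 3.73 there and at 0.841 to 10.2 in the other Ce samples, and Lhb at 3.73 and at 1.78 to 16.9. The part of pituitary RNA in the Pomc value was not tested.

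Pnoc, the nociceptin precursor, was detected at a similar order of magnitude in both regions. It held 153, 132, 164 and 189.7 normalized counts in CeCo and 152, 166, 157 and 241 in CeHi. It held 252, 351, 515 and 347 in StCo and 310.0, 292 and 343 in StHi. All St samples lay above all Ce samples.

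The receptor genes were likewise higher in the striatum. The kappa receptor gene Oprk1 held 2128, 1939.6, 1945 and 2284 in StCo and 1829, 1740.3 and 2066 in StHi. In the cerebellum it held 28.0, 35.7, 42.7 and 27.6 in CeCo and 26.9, 33.8, 22.2 and 63.4 in CeHi. The striatal groups overlapped, and the highest Ce sample was again CeHi replicate 3.

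The delta receptor gene Oprd1 held 1342, 1157, 945 and 1376 normalized counts in StCo and 1056, 1271 and 1239.7 in StHi. It held 46.6, 38.3, 59.7 and 33.8 in CeCo and 54.7, 70.7, 36.1 and 59.2 in CeHi. The lines overlapped in both regions.

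The nociceptin receptor gene Oprl1 was well detected in both regions. It held 396, 476, 519.7 and 427 normalized counts in CeCo and 528, 443, 519 and 722 in CeHi. In the striatum it held 1897, 2069, 2239 and 1677 in StCo and 2070.2, 1610.1 and 1954 in StHi. The CeHi maximum was replicate 3, and the lines overlapped in both regions.

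The mu receptor gene Oprm1 was low in the striatum and rested on single fragments in the cerebellum. It held 109, 144, 105 and 133 normalized counts in StCo and 54.5, 73.8 and 110.4 in StHi. Of the 3 StHi samples, 2 lay below every StCo sample and the third lay within the StCo range. In the cerebellum it rested on 9 fragments in all in CeCo, with 5, 1, 1 and 2 per sample, and on 18 in CeHi, with 3, 7, 2 and 6. A floor of 3 fragments corresponds to 2.52 to 3.89 normalized counts, and 5 of the 8 Ce samples held 3 fragments or fewer.

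**Figure D1:**
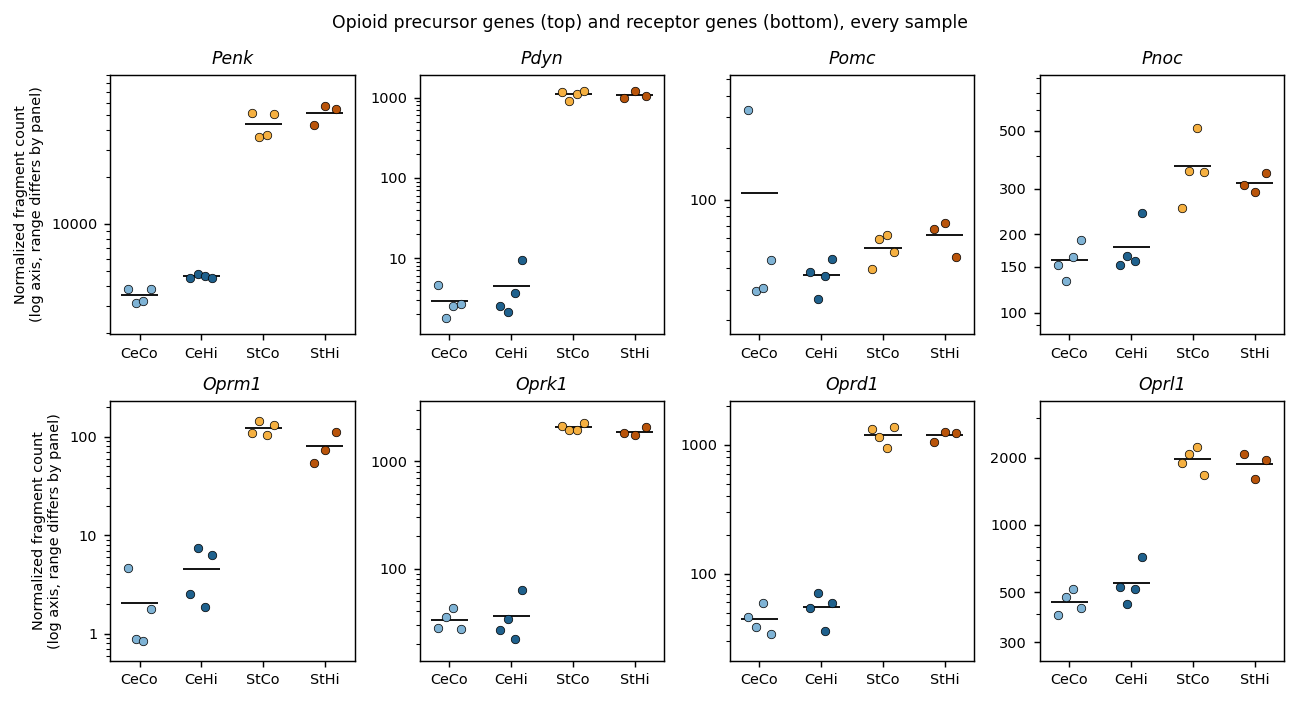
Normalized fragment count (log axis, with a range of its own in each panel) of the 8 genes in each of the 15 samples, by group; points are samples and lines are group means. The St samples lie above the Ce samples for every gene but Pomc, whose highest value, 332.7, is in CeCo replicate 0.

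Levels were compared between genes only per length, as fragments per kilobase of annotated exon and per 1000000 fragments (FPKM). In StCo the Penk level was 627 ± 110.2 (SD, n = 4) and in StHi 744 ± 110.0 (SD, n = 3). The order below Penk was Oprl1, Pdyn, Oprd1, Oprk1, Pnoc, Pomc and Oprm1 in both St groups. In StCo these levels were 12.3 ± 1.73 for Oprl1, 8.88 ± 0.973 for Pdyn, 6.99 ± 1.02 for Oprd1, 5.30 ± 0.350 for Oprk1, 3.99 ± 1.28 for Pnoc, 0.935 ± 0.200 for Pomc and 0.357 ± 0.0543 for Oprm1 (SD, n = 4 each). Within StCo the sample ranges of Pdyn and Oprd1, of Oprd1 and Oprk1, and of Oprk1 and Pnoc overlapped, so these neighbours were not separated by the spread. Penk made up 94.2% of the summed level of the 8 genes in StCo and 95.2% in StHi.

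The cerebellar order differed. Penk led with 54.2 ± 5.83 in CeCo and 71.5 ± 1.63 in CeHi (SD, n = 4 each), which was 87.9% and 91.0% of the summed level. Oprl1 followed with 3.08 ± 0.401 in CeCo and 3.74 ± 0.839 in CeHi, and Pnoc stood at 1.88 ± 0.310 and 2.11 ± 0.508. Pomc stood at 0.701 ± 0.157 in CeHi and ranged from 0.554 to 6.35 in CeCo. Oprd1, Oprk1, Pdyn and Oprm1 had mean levels of 0.282, 0.0930, 0.0257 and 0.00644 in CeCo, in that order, and 0.347, 0.101, 0.0394 and 0.0142 in CeHi. In CeHi the ranges of Oprk1 and Pdyn, and of Pdyn and Oprm1, overlapped.

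The order depended on which length was used for 2 receptor genes with long alternative exons. With the longest coding transcript in place of all exons, a choice made after the data were seen, Oprk1 rose from 5.30 to 10.4 in StCo and stood above Oprd1 at 6.99, and Oprm1 went from 0.357 to 1.18, the level of Pomc (1.18). Penk remained first by either length, at 707 in StCo.

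**Figure D2:**
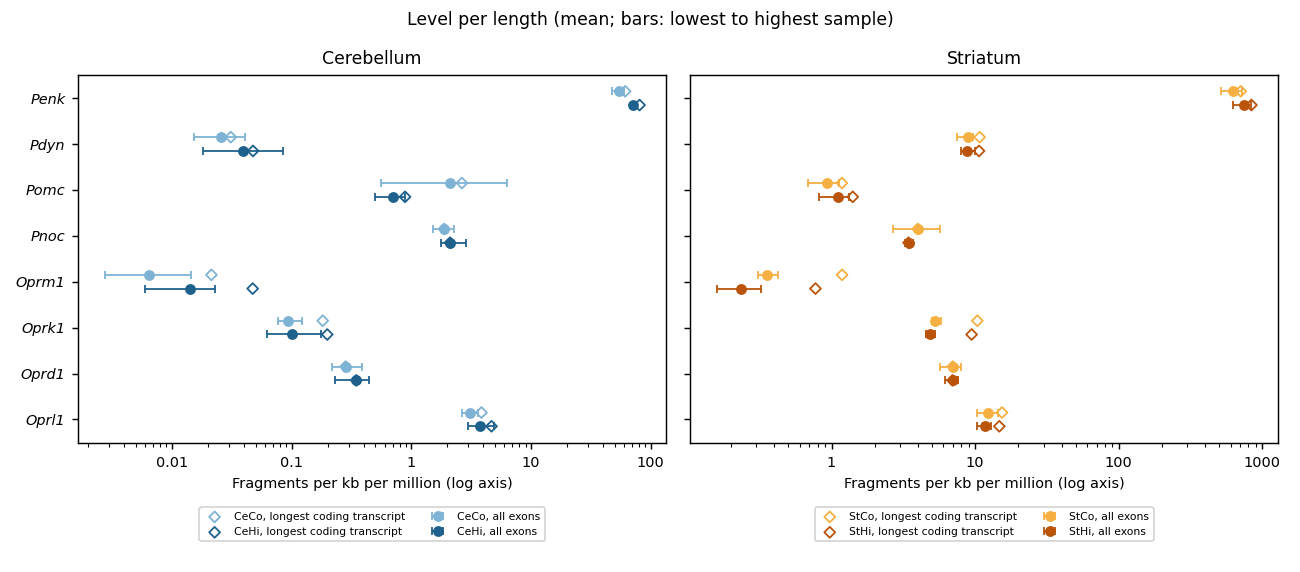
Level per length (FPKM, log axis) of the 8 genes in Ce (left) and St (right); filled points are group means over all annotated exons with bars from the lowest to the highest sample, and open diamonds are means by the longest coding transcript. Penk stands far to the right in both regions, at 54.2 in CeCo and 627 in StCo, and Oprm1 and Oprk1 move most between the length choices.

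The region contrast (St minus Ce, mean of both lines) was called for 7 of the 8 genes, all over-expressed in St, and not for Pomc, by limma on log2 values with Benjamini-Hochberg adjustment over all genes tested. Over all genes tested 80.2% were called and 39.6% were called higher in St. The log2 difference was 7.99 for Pdyn (SE 0.224, adjusted p = 2.6e-15), 5.85 for Oprk1 (SE 0.173), 4.73 for Oprm1 (SE 0.297), 4.60 for Oprd1 (SE 0.145), 3.56 for Penk (SE 0.0887), 1.95 for Oprl1 (SE 0.0996) and 1.002 for Pnoc (SE 0.138, adjusted p = 4.0e-06). Pdyn ranked 31st and Oprk1 137th from the highest of 15213 genes.

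Of these genes, 3 could not have passed the filter of 1 CPM (counts per 1000000) in at least 3 samples without the striatum. Pdyn and Oprm1 reached it in 0 and Oprk1 in 2 of 8 Ce samples, so their difference between regions was fixed by the filter. Oprd1 reached it in 5 of 8 Ce samples, and Penk, Pnoc and Oprl1 in all 15 samples. The log2 values carry a pseudocount of 1, which understates the difference of genes near 0 such as Pdyn and Oprm1: with a pseudocount of 0.1 the Oprm1 difference was 5.22 and with 5 it was 3.67. Pomc differed by 0.27 (95% interval -0.64 to 1.18, adjusted p = 0.57). Without CeCo replicate 0 its difference was 0.67 (SE 0.173, adjusted p = 0.0022) and it was called higher in St.

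The cerebellar levels were set beside those of 16 striatum marker genes, among them Ppp1r1b, Drd1, Drd2 and Adora2a. The median marker in a Ce sample was at 0.365% to 0.677% of its St mean, except in CeHi replicate 3, where it was at 1.75%. Six3, a striatal transcription factor gene, was at 179 normalized counts in that sample and at a group mean of 2.91 in CeCo. Penk in Ce was at 6.63% to 10.1% of its St mean, Pnoc at 38.3% to 69.98% and Oprl1 at 20.51% to 37.4%, all above the marker median of the same sample in all 8 Ce samples. Pdyn was at 0.164% to 0.873%, below the marker median in all 8.

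**Figure D3:**
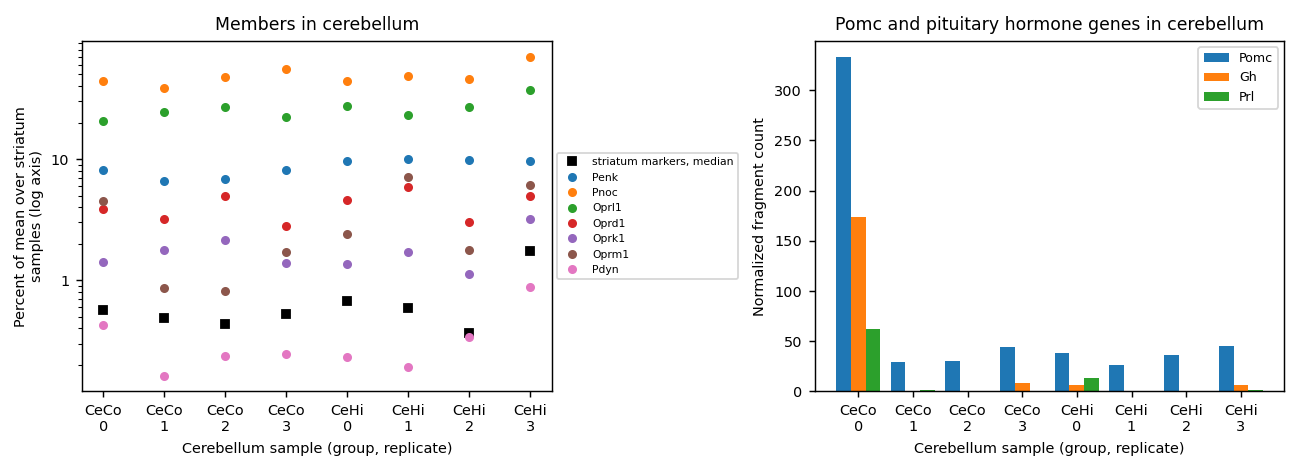
Left, each of 7 genes and the median of 16 striatum markers in every Ce sample, as a percent of the mean over the St samples (log axis); right, normalized counts of Pomc and the pituitary hormone genes Gh and Prl in the same samples. The marker median is highest in CeHi replicate 3 (1.75%), and Pomc, Gh and Prl are highest in CeCo replicate 0 (332.7, 173 and 62.4).

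The line contrast within the cerebellum (CeHi minus CeCo) asked whether the selected line differed from the control line. None of the 8 genes was called by limma, with 5.94% of all genes called. At an unadjusted p under 0.05 there were 2, Penk and Oprm1. edgeR's quasi-likelihood test on recovered fragments called 0 and also had 2 unadjusted, but these were Penk and Pomc, with Oprm1 at an unadjusted p of 0.11. DESeq2 on recovered fragments called 1, Penk, and had Oprl1 beside it at an unadjusted p under 0.05. It gave no p for Pomc.

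Penk was higher in CeHi by 32.3% of the CeCo mean, with means of 4615 ± 111 against 3489 ± 367 (SD, n = 4 each). The log2 difference was 0.40 (SE 0.121, 95% interval 0.15 to 0.66, limma adjusted p = 0.063). The 4 CeHi samples all exceeded the 4 CeCo samples, as was so for 6.88% of all genes tested. With the Ce samples fitted alone the difference was 0.41 (SE 0.0707, adjusted p = 0.0057), and with DESeq2 0.40 (adjusted p = 0.015), both past the threshold. Without CeHi replicate 3, the sample with striatum genes, it was 0.42 (adjusted p = 0.11).

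Of the other 7 genes, 6 had intervals that included 0 in Ce. The log2 difference of Oprm1 was 0.87 (95% interval 0.02 to 1.72, adjusted p = 0.24), on 9 against 18 fragments. Those of Oprd1 (0.29, interval -0.13 to 0.70), Oprl1 (0.26, -0.03 to 0.55), Pnoc (0.15, -0.25 to 0.54), Pdyn (0.34, -0.30 to 0.99) and Oprk1 (0.03, -0.47 to 0.53) were within the spread of the samples. Pomc was at -0.76 (interval -1.99 to 0.48), and without CeCo replicate 0 at 0.06. The median over the 8 genes was 0.27, with 7 of 8 above 0, beside -0.0021 over all genes tested. Without CeHi replicate 3 it was 0.06, with 4 of 8 above 0. In the same contrast the 16 striatum markers had a median of 0.34, with 13 above 0, and the 6 cortex markers one of 0.33, with 6 above 0, and their part in the median of the 8 genes was not tested. The highest Pdyn, Pnoc, Oprk1 and Oprl1 values in CeHi all came from replicate 3, and without it these differences were -0.03, -0.00, -0.27 and 0.13.

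In the striatum (StHi minus StCo) none of the 8 genes was called by limma, none had an unadjusted p under 0.05, and 2.66% of all genes were called. edgeR and DESeq2 also called 0, each with 1 unadjusted p under 0.05, that of Oprm1. For Pomc DESeq2 gave no p. Penk stood at 0.24 on the log2 scale (SE 0.130, 95% interval -0.04 to 0.51, adjusted p = 0.46), and ran from 0.15 without StCo replicate 1 to 0.36 without StHi replicate 0. Oprm1 had the largest difference, at -0.67 (interval -1.59 to 0.25, adjusted p = 0.56), with group means of 123 ± 19.0 (SD, n = 4) in StCo and 79.6 ± 28.4 (SD, n = 3) in StHi. Without StHi replicate 0 it was -0.43 and without StHi replicate 2 it was -0.93. Oprk1 was at -0.15, Pnoc at -0.18, Oprl1 at -0.07, Pdyn at -0.03, Oprd1 at -0.01 and Pomc at 0.23, with intervals that included 0. The median over the 8 genes was -0.05, with 2 of 8 above 0.

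**Figure D4:**
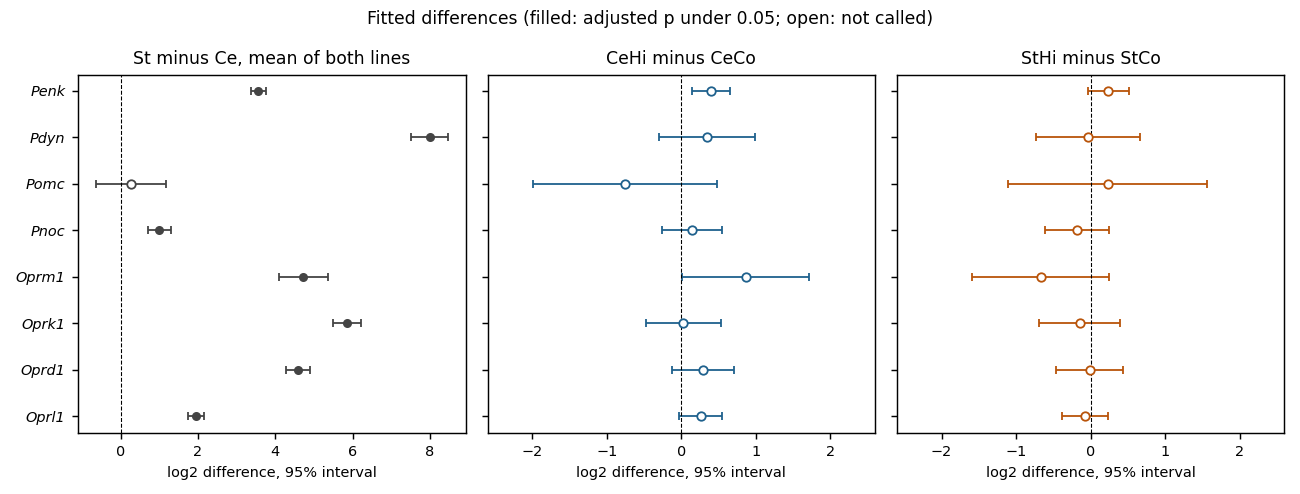
Log2 differences with 95% intervals for the 8 genes: St minus Ce (left), CeHi minus CeCo (middle) and StHi minus StCo (right), from limma; filled points have an adjusted p under 0.05. The left panel runs to 7.99 for Pdyn, while neither line panel holds a filled point.

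Averaged over both regions (Hi minus Co), Penk was called and was over-expressed in Hi, with a log2 difference of 0.32 (SE 0.0887, 95% interval 0.13 to 0.51, limma adjusted p = 0.035). It was the single gene of the 8 that was called, while 8.48% of all genes were called and 4.34% were called higher in Hi. This fit took the Ce and St samples as independent. Of the 15 fits that left out 1 sample, 7 kept the call, and the differences ran from 0.28 to 0.38 over the 15. The call was lost without CeCo replicate 1 or 2, CeHi replicate 1 or 2, StCo replicate 1 or 2, or StHi replicate 1 or 2, at adjusted p from 0.051 to 0.095. Without CeCo replicate 0, CeHi replicate 3 and StHi replicate 0, a choice made after the data were seen, the difference was 0.41 (adjusted p = 0.021).

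The difference between the line effects of the regions was called for 0 of the 8 genes by limma, edgeR and DESeq2 alike, with 1 unadjusted p under 0.05 by each tool and 0.532% of all genes called by limma. By each tool this was Oprm1, by limma with a log2 difference of 1.54 between the Ce and St line effects (95% interval 0.28 to 2.79, adjusted p = 0.37). DESeq2 gave no p for Pomc in this contrast. Penk stood at 0.17 (interval -0.21 to 0.54, adjusted p = 0.86), so a difference of its line effect between regions was not shown.

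Penk in the striatum varied with the striatum markers from sample to sample. The 3 St samples with the least Penk were StCo replicates 1 and 2 and StHi replicate 0, where the median marker was at 83.9%, 85.6% and 86.5% of its St mean. In the other 4 samples it was at 105% to 114%. Penk equalled 18.2%, 16.1%, 16.5% and 16.9% of the summed count of the 16 markers in the StCo samples and 18.7%, 19.1% and 18.9% in the StHi samples. All StHi samples lay above all StCo samples in this share, computed after the data were seen and given with no test. The nearest samples were at 18.2% and 18.7%. Of all genes tested, 7.20% had every StHi count above every StCo count. No such background was computed for shares of this kind. StHi replicate 0 also held hypothalamus genes, with Pmch, the precursor of melanin-concentrating hormone, at 908 normalized counts against at most 9.50 in the other St samples. Avp and Oxt, the vasopressin and oxytocin precursors, were at 680 and 271 in that sample, and at 102 and 397 in StCo replicate 2. The part of these in the Penk values was not tested.

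Because a ratio within a sample is free of its depth, Pdyn was also set against Penk in each St sample. Penk exceeded Pdyn by 43.9, 39.3, 33.9 and 42.4 times in the StCo samples. In the StHi samples the ratio was 44.0, 46.7 and 52.9. The groups did not overlap, though the nearest samples were 43.9 and 44.0. Of all genes tested, 13.1% did not overlap between lines in St by their counts, and no background over ratios of genes was computed. The log2 ratio of Pdyn to Penk was lower in StHi by a mean difference of -0.27, with a two-sided exact permutation p = 0.057, which is the smallest that 4 against 3 samples allow. The design therefore cannot pass 0.05.

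**Figure D5:**
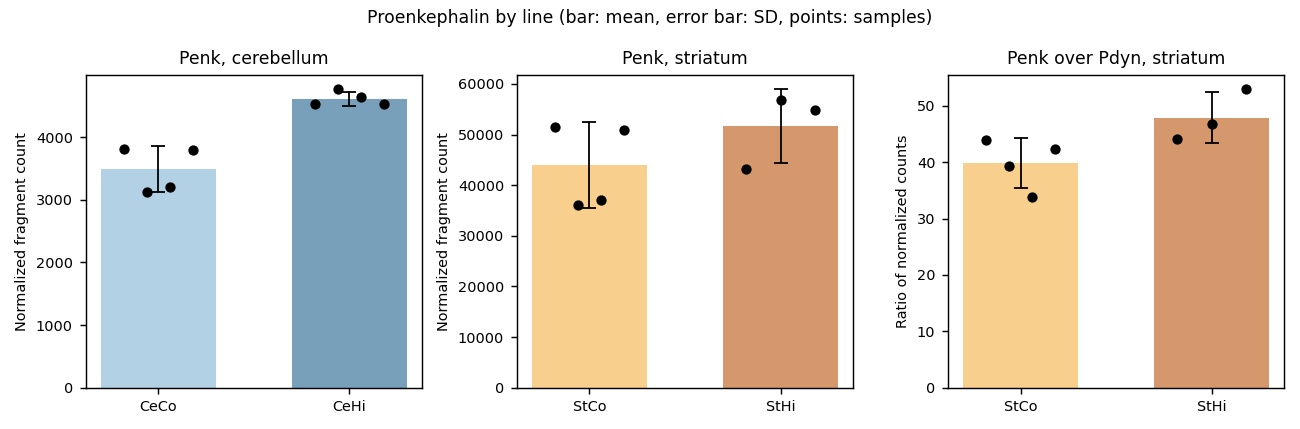
Penk normalized counts in Ce (left) and St (middle), and the ratio of Penk to Pdyn in St (right); bars start at 0 and show the mean, error bars the SD and points the samples. The 4 CeHi samples lie above the 4 CeCo samples, the St groups overlap in Penk, and the ratio runs from 33.9 to 43.9 in StCo and from 44.0 to 52.9 in StHi.

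The neurons known to carry these precursors were examined through their other markers. None of the 6 direct pathway genes (Drd1, Tac1, Chrm4, Eya1, Isl1, Slc35d3) and none of the 5 indirect pathway genes (Drd2, Adora2a, Gpr6, Gpr52, Sp9) was called between lines in St. Their median log2 differences were -0.17, with 1 of 6 above 0, and 0.19, with 5 of 5 above 0, beside -0.0046 over all genes tested. In this contrast 2.66% of all genes were called. Adora2a, the adenosine receptor gene of indirect pathway neurons, was the highest of its list at 0.30 (SE 0.129). Gpr6 stood at 0.23, Drd2 at 0.19, Sp9 at 0.18 and Gpr52 at 0.05, beside Penk at 0.24. Drd1, the dopamine receptor gene of direct pathway neurons, was at -0.05 (SE 0.237). Eya1 stood at 0.05, Slc35d3 at -0.15, Tac1 at -0.18, Chrm4 at -0.25 and Isl1 at -0.40, beside Pdyn at -0.03.

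Enzymes that process peptide precursors and other proteins of secretory granules were taken as a list of 8 genes (Pcsk1, Pcsk2, Cpe, Pam, Scg5, Pcsk1n, Ctsl, Vgf). Of them 1 was called in Ce, beside 5.94% of all genes tested. This was Vgf, a granule protein gene induced by neuronal activity and not an enzyme gene. It was over-expressed in CeHi by 0.72 on the log2 scale (SE 0.135, limma adjusted p = 0.0043), from a mean of 755 ± 138 to 1245 ± 205 normalized counts (SD, n = 4 each). Vgf was also called over both regions (0.49, adjusted p = 0.0063), as were 8.48% of all genes. None of the 8 was called between lines in St, where 2.66% of all genes were called. Between regions 7 were higher and 1 lower in St, beside 80.2% of all genes called in either direction. Cpe, the carboxypeptidase that trims neuropeptides, was at 1.36.

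Peptidases that degrade enkephalins and related peptides formed a list of 7 (Mme, Anpep, Dpp3, Ace, Npepps, Ece1, Ece2). None was called between lines in either region. Mme, neprilysin, was at 0.51 in Ce (SE 0.169, adjusted p = 0.095) and at -0.12 in St. Between regions 1 was higher and 3 were lower in St. Of 22 genes of receptor signalling, such as inhibitory G protein subunits, adenylyl cyclases, potassium channels, arrestins, receptor kinases and RGS proteins, 0 were called in any line contrast, and between regions 10 were higher and 10 lower in St. Beside these lists, 5.94% of all genes tested were called between lines in Ce, 2.66% in St and 8.48% over both regions. Between regions 80.2% of all genes were called.

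Genes whose profile over the 15 samples was most like each of the 8 were found by the root mean square difference of centred log2 values, a description over samples that share the region contrast. For Penk these were Ppp1r1b (0.142), Wipf3 (0.165) and Rerg (0.176). For Pdyn they were Kcnj4 (0.275), 3110039M20Rik and Chrm1, for Oprk1 Mchr1 (0.225), Kcnq5 and Ngef, and for Oprd1 Kcna4 (0.228), Htr2a and Mme. Oprl1 was most like Sulf2 (0.135), Gfra4 and Sntg1, and Pnoc most like Prmt2 (0.189), Mettl1 and Chchd6. Oprm1 (0.496 to 9130024F11Rik, then Mme and Kctd16) and Pomc (0.674 to 2010317E24Rik, then Ect2 and LOC100861689) had larger differences to their nearest genes.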

How the data were processed

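Members, gene lists and alternatives were chosen with earlier results of these data known. According to the methods and labels, the authors mapped paired-end reads to GRCm38 with TopHat2 and deposited library-size normalized counts from Cuffnorm 2.2.1, a signal scale that is not per length and is not raw counts. Low values were whole multiples of 1 fragment in 99.6% to 99.8% of cases (within 0.1 step), so fragments were recovered. All 15 columns were mapped to samples, with 0 left over. Log2(TMM-scaled value + 1) of 15213 genes (CPM of 1 in at least 3 samples) was fitted with limma 3.58.1 (R 4.3.3, trend, robust) over 4 group means, with Benjamini-Hochberg adjustment and calls at adjusted p under 0.05. Named genes were the 8 members, list genes called between lines or needed beside a member, the 3 nearest profiles and overlapping genes; the 13 lists held 113 entries, 6 under older symbols. The script was tested on simulated data. edgeR 4.0.16 and DESeq2 1.42.0 were run on recovered fragments, and the alternatives were other pseudocounts, filters and scalings, quality weights, a replicate block, and fits without each sample. Single mice gave each sample, so p-values measure the spread between mice of 1 line. All samples were fitted as independent of each other.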

Additional observations from a re-analysis of the deposited data

Results flagged for a closer look

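Of the values examined, 2 stood apart from the other samples of their group by Dixon's gap test (the gap to the nearest sample over the range of the group), among 24 groups of 4 samples, of which about 1.2 would be expected by chance, since it marks about 5% of groups. The 8 groups of 3 samples were not examined. Pomc in CeCo replicate 0 was at 332.7 normalized counts, with a gap over range of 0.9502, while the next sample was at 44.5. Pituitary genes were high in the same sample, as given above. Pnoc in CeHi replicate 3 was at 240.9 normalized counts, with a gap over range of 0.849, while the next sample was at 166. Among Ce samples the median striatum marker was highest in that sample, at 1.75% of its St mean. The summed count of these markers was not, at 13221.5 against 13562 in CeHi replicate 1.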

How the results depend on the processing

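Over 40 member results, 971 of 1029 alternative values kept their direction and side of the threshold, 8 lost the call, 8 gained it and 42 turned the direction, all of the last for differences that were not called. A missing adjusted p, as DESeq2 gave for Pomc, was counted as not called. The 7 region calls were kept under all alternatives run. Those of Pdyn, Oprm1 and Oprk1 were fixed by the filter, as given above, so only the calls of Penk, Pnoc, Oprd1 and Oprl1 were open to loss. The count of genes called between lines in Ce was 0, but 1 (Penk) with DESeq2 and with each region fitted alone, and 0 to 1 without single samples. That over both regions was 1 and 0 to 1 without single samples. The cause of these moves was not tested. The median over the 8 genes in Ce ranged from 0.06 to 0.33 without single samples. The counts in St and for the interaction were 0 throughout. The Pdyn to Penk log2 ratio in St ranged from -0.33 to -0.19 without single samples, at exact p of 0.1 or 0.13, the smallest then possible.

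The direction turned for Oprk1 in Ce with quality weights (-0.15) and without CeCo replicate 0, CeHi replicate 3 and StHi replicate 0 (-0.34), and for its interaction under the same settings (-0.048 and -0.21). Without those 3 libraries it also turned for Pnoc in Ce (-0.019), Oprd1 and Pdyn in St (0.070 and 0.035), and Oprl1 and Pomc over both regions (-0.042 and 0.052). A pseudocount of 5 turned Oprm1 over both regions (-0.11). For Pomc between regions edgeR and DESeq2 both gave -0.13, and DESeq2 gave no adjusted p.

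Without single samples the ranges that cross 0 were, in Ce, -0.27 to 0.23 for Oprk1, -0.028 to 0.56 for Pdyn, -0.0026 to 0.24 for Pnoc and -1.10 to 0.059 for Pomc. In St they were -0.13 to 0.068 for Oprd1, -0.15 to 0.032 for Oprl1 and -0.12 to 0.034 for Pdyn. For the interaction they were -0.13 to 0.37 for Oprk1 and -0.0058 to 0.58 for Pdyn. Over both regions they were -0.20 to 0.042 for Oprk1, -0.033 to 0.28 for Oprm1, -0.025 to 0.27 for Pdyn, -0.098 to 0.073 for Pnoc and -0.43 to 0.15 for Pomc.

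Replicate numbers were shared between regions. Samples with the same number correlated in residuals at 0.171 to 0.278 in Co, each best with its own number. In Hi, where a further StHi library had been set aside, they correlated at -0.0751 to 0.0513, so the numbers were not taken as pairs. The labels do not state whether Ce and St samples came from the same mice. If they did, the fit over both regions took samples of the same mouse as independent, and its p-values can be too small. A replicate block joined the same number across both lines and did not model such pairs. It left every count of members called as it was and kept Penk over both regions (0.34, adjusted p = 0.042). It turned Pdyn in St (0.11) and Pnoc over both regions (0.022). With a block within line the Oprk1 interaction was -0.12.

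Over all genes, calls in Ce were 903 by limma and 1389 by DESeq2, in St 405 against 709 by DESeq2, 740 with quality weights and 269 without StCo replicate 1 or StHi replicate 2, and for the interaction 81 against 277, 182 and 46 to 53 without 1 of 5 samples. The lowest levels, Pdyn and Oprm1 in Ce, are limited by counting.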

Other observations

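Other marker lists gave the following values, with no part of them in the opioid values tested. The 6 cortex markers summed to 10729 to 14933 normalized counts in StCo and 8107 to 13692 in StHi, and to 239 to 456 in Ce. The 5 choroid plexus markers, led by genes such as Ttr, summed to 236 to 762 in StCo, 735 to 16139 in StHi and 1229 to 114419 in Ce. The 8 hypothalamus markers summed to 28.3 to 525 in StCo, to 73.8 and 198 in the StHi samples other than replicate 0 and to 2409 in StHi replicate 0, and to 4.20 to 12.1 in Ce. The 6 brainstem markers summed to 380.3 to 593 in Ce and 25.9 to 52.5 in St. None of the genes tested in these 4 lists was called between lines in either region by limma. Of all genes, 5.94% were called in Ce and 2.66% in St.

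Of the cortex markers, 1 of 6 had a log2 difference above 0 between lines in St, with a median of -0.67, and 6 of 6 had one above 0 in Ce, with a median of 0.33. Drd1, Drd2, Adora2a and Gpr6 stood in both the striatum list and a pathway list, and Rgs9 in both the striatum and the signalling list.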
